A study of Mus musculus with 4 samples.

Results

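The genes of the proteasome subunits were described in 4 L1210 cell lines, from 1 Agilent 1-colour array per line. Members were the genes whose symbol in the deposited table was Psma, Psmb, Psmc, Psmd or Psme followed by digits. They numbered 42 of the 24561 gene symbols on the array and were read by 52 probes. L1210 cells derive from a lymphocytic leukemia of the mouse, here of DBA subline 212. Every line was sorted by flow cytometry for GFP+ cells, so L1210-control shared the sort with the others. For the infection the paper names lentivirus in its methods and retrovirus in its results. It does not state what virus L1210-control received. L1210-Fbxw11a carried the full-length isoform of Fbxw11, an F-box protein of an SCF ubiquitin ligase, whereas L1210-Fbxw11c carried the isoform that lacks exon 2 and L1210-Fbxw11d the one that lacks exons 2 and 3. The paper lists a lentiviral vector with the EF1α promoter. Each name stands for 1 stable line. Where values of the arrays are listed, a line is named by its isoform. The cells were cultured without further treatment. With 1 array per line no difference has a replicate check, and no test across samples was possible.

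The proteasome degrades proteins tagged with ubiquitin. Its core particle is a stack of outer alpha rings (Psma genes) and inner beta rings (Psmb genes), and Psmb6, Psmb7 and Psmb5 encode the catalytic subunits beta1, beta2 and beta5. In lymphoid cells and under interferon these 3 can be replaced by Psmb9, Psmb10 and Psmb8, which gives the immunoproteasome and changes the peptides available to MHC class I. The regulatory particle, with a ring of ATPases (Psmc genes) and a set of non-ATPase subunits (Psmd genes), recognises and unfolds the tagged protein. The Psme genes encode activators that open the core without the regulatory particle.

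Signals are intensities after each array was set to the 75th percentile of L1210-control. A log2 ratio is the difference between 2 arrays in log2 signal. Probes differ in brightness for reasons of their own, so only ratios were compared between genes. The error of a single spot was taken from 399 probes printed on 10 spots each and is given as an SD. It leaves out culture, sorting, RNA extraction and labelling. L1210-Fbxw11d was alone on slide 2, and the other 3 arrays were on slide 1, so slide and line cannot be told apart for it. After scaling, the E1A spike-in RNAs of this array lay 0.58 ± 0.09 (SD, n = 8 probes) below L1210-control on the log2 scale, against shifts of 0.13 and 0.16 on the other 2 arrays. Before scaling the same probes lay 0.04 above L1210-control, so the gap came with setting the 75th percentiles equal. Fbxw11 itself read 13153 in L1210-control, 16343 with Fbxw11a, 15897 with Fbxw11c and 13432 with Fbxw11d by its brighter probe, with log2 ratios of 0.31, 0.27 and 0.03. By the other probe the ratios were 0.21, 0.22 and 0.18. Its 2 probes start at bases 3692 and 3803 of the transcript. Whether the introduced cDNA reaches them is not given in the sources used here, so they do not check the labels. The paper reports that high Fbxw11 in these lines was checked by real-time RT-PCR and by western blotting.

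Of the 42 genes, 40 were well above background on all 4 arrays. The other 2 were well above background on none. These were Psma8, an alpha subunit of the germ line, with signals from 2.08 to 3.71, and Psmb11, the beta5 subunit of thymic epithelium, with signals from 2.08 to 3.69. No spot of a member was saturated. Of the 40, 39 had a mean signal of at least 1000, and Psmb8 was the exception. Psme2 had no probe under that symbol in the table used here. Its copy Psme2b falls outside the rule, and it was not tested whether its probes also bind Psme2 RNA. The brightest Psme2b probe read 63256 in L1210-control, 63809 with Fbxw11a, 64484 with Fbxw11c and 60938 with Fbxw11d.

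No subunit gene reached a 2-fold difference from L1210-control. The count was 0 of 40 in L1210-Fbxw11a, where 4.45% of 17929 genes tested passed. It was 0 of 40 in L1210-Fbxw11c, where 3.87% of 17734 genes passed, and 0 of 40 in L1210-Fbxw11d, where 5.78% of 18437 genes passed. With each array set to its spike-in RNAs instead, an alternative added after seeing the data, the count was 0 in L1210-Fbxw11a against 4.39% of all genes, 0 in the Fbxw11c line against 4.21%, and 1 in the Fbxw11d line against 12.1%. This was Psmb8, at a log2 ratio of 1.15. At 1.5-fold on the main scale the count was 0 in L1210-Fbxw11a against 10.8% of all genes, 1 (Psmb8) in the Fbxw11c line against 9.86%, and 0 in the Fbxw11d line against 14.7%. Psmb8 passed 1.5-fold in the Fbxw11d line as well under quantile normalization and in the authors' values, and in none of the lines after normexp. No p-value could be had, since there was 1 array per line. Many of all genes tested were dimmer than the subunits, and dim probes vary more. Among the 7680 genes with a mean signal of at least 1000, 13.1% differed by 1.2-fold or more in L1210-Fbxw11a, 14.3% in the Fbxw11c line and 25.3% in the Fbxw11d line. Of the 39 subunit genes this bright, 2, 3 and 5 did so in the same order. These shares of 39 genes were below those of the bright genes in each line.

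The medians of the 40 log2 ratios lay near 0 on the main scale. They were -0.0019 in L1210-Fbxw11a, 0.07 in the Fbxw11c line and 0.04 in the Fbxw11d line, beside 0.01, 0.02 and 0.05 over all genes compared. The sign of the L1210-Fbxw11d median turned under quantile normalization (-0.0075) and in the authors' normalized values (-0.0080), and that of L1210-Fbxw11a under centring on the median (0.00043) and when a gene's probes were averaged (0.0048). Centring on the median took the L1210-Fbxw11d median to 0.25. On the spike-in scale the medians were -0.13, -0.08 and 0.62, beside -0.12, -0.14 and 0.61 over all genes, and all 40 subunits were above L1210-control in the Fbxw11d line, against 25 on the main scale. Centring on the median and the spike-in scale each shift all genes of an array alike. At 1.5-fold, centring on the median gave 0, 1 and 2 of 40 subunits in the 3 lines, beside 10.8%, 10.0% and 19.5% of all genes, and the spike-in scale gave 0, 0 and 24, beside 11.2%, 11.5% and 56.0%. In L1210-Fbxw11d against the other Fbxw11 lines the spike-in scale gave 28 (against L1210-Fbxw11a) and 32 (against L1210-Fbxw11c) of 40, beside 67.8% and 72.6% of all genes. The ratios below are on the main scale and therefore relative to an array's other genes. Any ratio of L1210-Fbxw11d to L1210-control measured on both arrays is 0.21 higher under centring on the median and 0.58 higher on the spike-in scale. The 36 genes called constitutive subunits here leave out Psmb8, Psmb9, Psmb10, Psme1 and the 2 undetected genes. They keep the activators Psme3 and Psme4 and the assembly chaperone Psmd5. Their medians were 0.0058, 0.07 and 0.03. From the lowest to the highest of the 4 arrays, the 40 subunit genes spanned a median of 0.21 on the log2 scale. The same median was 0.35 over the 16249 genes measured on each of the 4 arrays and 0.26 over the bright genes.

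**Figure D1:**
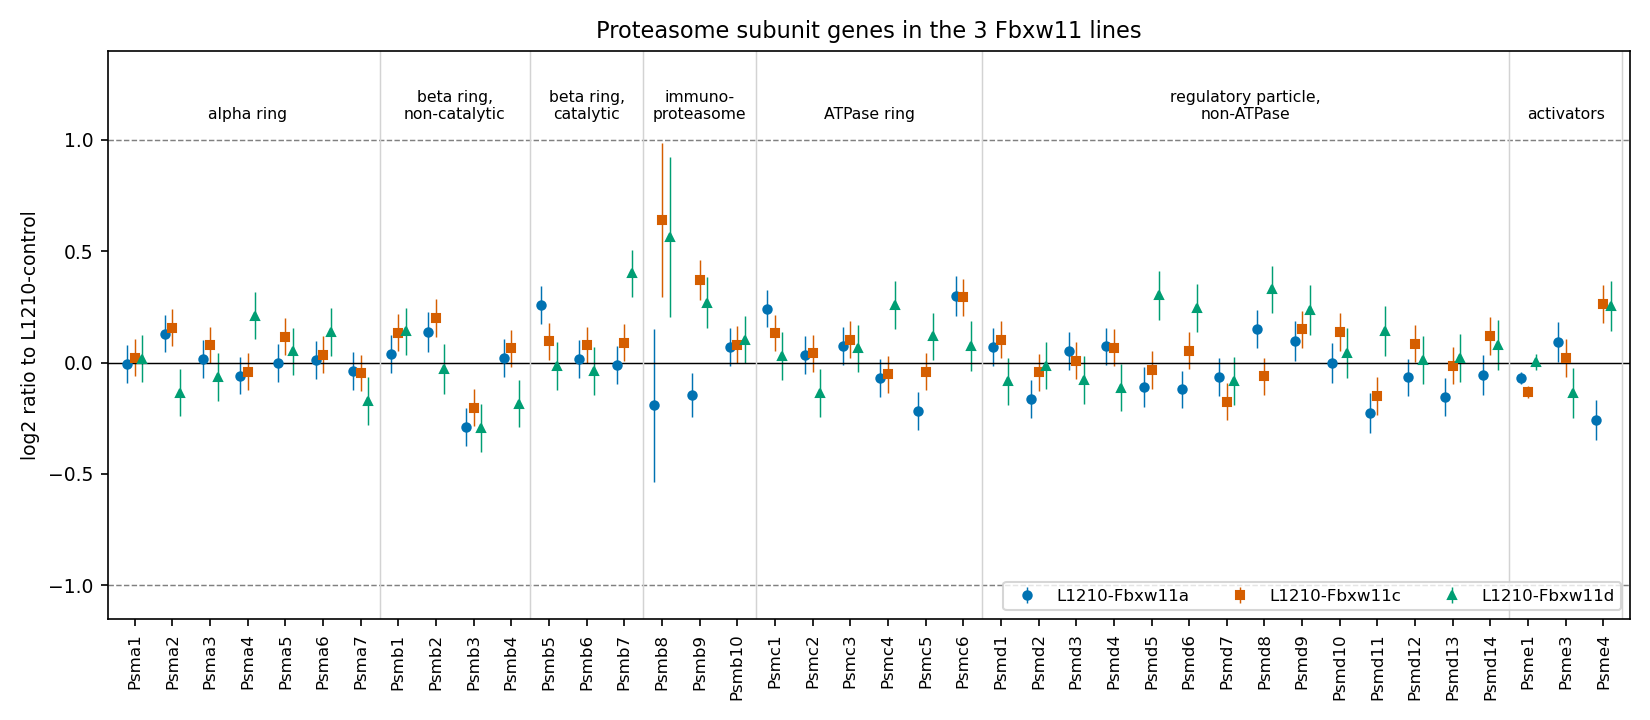
Log2 ratio to L1210-control of the 40 subunit genes well above background, in L1210-Fbxw11a (circles), L1210-Fbxw11c (squares) and L1210-Fbxw11d (triangles), grouped by role. Bars are the SD of a ratio from spots of probes of like brightness, 1 array per line, and dashed lines mark 2-fold; all points lie within the dashed lines, and the highest are Psmb8 in L1210-Fbxw11c (0.64) and L1210-Fbxw11d (0.56).

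The alpha ring, which gates entry to the core, had the narrowest range of log2 ratios in each line among the groups of 6 or more genes. Its 7 genes ran from -0.06 to 0.13 in L1210-Fbxw11a, from -0.05 to 0.16 in the Fbxw11c line and from -0.17 (Psma7) to 0.21 (Psma4) in the Fbxw11d line. Psma7 was among the 5 lowest of L1210-Fbxw11d, with 54129 in L1210-control, 52724 with Fbxw11a, 52423 with Fbxw11c and 48021 with Fbxw11d. Its ratio in L1210-Fbxw11d turned to 0.04 under centring on the median.

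Among the 4 non-catalytic beta subunits, Psmb3 stood lowest of all members in each of the 3 lines. It read 65528 in L1210-control, 53687 with Fbxw11a, 56932 with Fbxw11c and 53435 with Fbxw11d. All 3 Fbxw11 lines were below the control, by log2 ratios of -0.29 ± 0.09 (SD between single spots), -0.20 ± 0.08 and -0.29 ± 0.11. The last is above 0 on the spike-in scale, like that of every subunit in L1210-Fbxw11d. The 3 ratios share the 1 control array, and Psmb3 had 1 probe on 1 spot. Psmb2 was higher in L1210-Fbxw11a (0.14) and L1210-Fbxw11c (0.20) and read -0.03 in L1210-Fbxw11d. Psmb4 read -0.18 in L1210-Fbxw11d, which turned to 0.03 under centring on the median and was also positive after normexp.

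The constitutive catalytic subunits and their immunoproteasome counterparts were then set against each other, site by site. Their probes lie, in mm9 coordinates of the deposited table, at chr11:70341093-70341152 (Psmb6), chr14:55232957-55233016 (Psmb5), chr17:34319174-34319233 (Psmb9), chr8:108459677-108459736 (Psmb10) and chr17:34337771-34337830 (Psmb8). The Psmb7 probe spans chr2:38468966-38489385, across a junction. No exon annotation of this build was used.

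At the beta1 site, Psmb6, which cleaves after acidic residues, read 95824 in L1210-control, 96941 with Fbxw11a, 101204 with Fbxw11c and 93451 with Fbxw11d. Its ratios of 0.02, 0.08 and -0.04 were all smaller than 1 spot SD. Psmb9, its immunoproteasome counterpart, read 998 in L1210-control, 901 with Fbxw11a, 1291 with Fbxw11c and 1202 with Fbxw11d. L1210-Fbxw11c and L1210-Fbxw11d were thus the 2 high lines and L1210-Fbxw11a the low one. The log2 ratios of Psmb9 were -0.15 ± 0.10 (SD between single spots), 0.37 ± 0.09 and 0.27 ± 0.11. Set against Psmb6, the difference of log2 ratios was -0.16 ± 0.13 in L1210-Fbxw11a, 0.29 ± 0.12 in the Fbxw11c line and 0.30 ± 0.16 in the Fbxw11d line. Such a difference does not depend on how an array is scaled by 1 number.

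Psmb9 had a second, dim probe at chr17:34322762-34322821, which did not go with the first. It read 28.5 on its 1 spot in L1210-control and was not well above background on the other 3 arrays. Probes below 30 on the control array had a median SD between spots of 0.44 on the log2 scale. The start of the dim probe is given as base 1477, against base 616 for the brighter one. Yet it lies upstream of that probe on this minus-strand gene, and whether both read the same transcript was not tested. By the dim probe the signal was at least 1.99-fold lower in L1210-Fbxw11a, at least 1.92-fold lower in the Fbxw11c line and at least 2.73-fold lower in the Fbxw11d line. Each bound was taken against the lowest signal well above background on that array. Averaging both probes, with these bounds as values, turned the ratios of Psmb9 to -0.28 in L1210-Fbxw11c and -0.59 in the Fbxw11d line. The higher Psmb9 of these 2 lines therefore rests on the brighter probe.

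At the beta5 site, Psmb5, which cleaves after hydrophobic residues, read 90079 in L1210-control, 107620 with Fbxw11a, 96270 with Fbxw11c and 89076 with Fbxw11d. It was the second highest member of L1210-Fbxw11a, with a ratio of 0.26 by this probe and 0.13 by its other one. In L1210-Fbxw11d these probes read -0.02 and 0.23, and the sign of the first turned under 4 of the planned scalings, normexp included. Psmb8, its counterpart, gave a dim signal of 52.5 ± 6.4 (error given by the scanner software) in L1210-control, 45.9 ± 5.4 with Fbxw11a, 81.8 ± 8.8 with Fbxw11c and 77.6 ± 8.0 with Fbxw11d. The order of the lines was that of Psmb9. Its log2 ratios were -0.19 ± 0.34 (SD between single spots), 0.64 ± 0.35 and 0.56 ± 0.36, the highest of any member in both L1210-Fbxw11c and L1210-Fbxw11d. None of the 3 exceeded 2 spot SDs. Against Psmb5, the difference of log2 ratios was -0.45 ± 0.35 in L1210-Fbxw11a, 0.54 ± 0.36 in the Fbxw11c line and 0.58 ± 0.37 in the Fbxw11d line. Taken against the other Psmb5 probe it was -0.33, 0.65 and 0.34. After normexp background correction, whose offset of 50 is about the Psmb8 signal itself, the Psmb8 ratio was 0.23 in L1210-Fbxw11c and -0.0025 in the Fbxw11d line.

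At the beta2 site the picture differed. Psmb7, which cleaves after basic residues, read 15984 in L1210-control, 15871 with Fbxw11a, 17007 with Fbxw11c and 21092 with Fbxw11d. L1210-Fbxw11d was the high line, with a ratio of 0.40 ± 0.11, the second highest of its members. Psmb10, its counterpart, read 59362 in L1210-control, 62389 with Fbxw11a, 62755 with Fbxw11c and 63782 with Fbxw11d. Its ratios of 0.07, 0.08 and 0.10 were each within 1 spot SD. Psmb10 minus Psmb7 was 0.08 ± 0.12 in L1210-Fbxw11a, -0.0093 ± 0.12 in the Fbxw11c line and -0.30 ± 0.15 in the Fbxw11d line. Psmb10 thus did not share the higher level of Psmb8 and Psmb9 in the 2 lines.

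**Figure D2:**
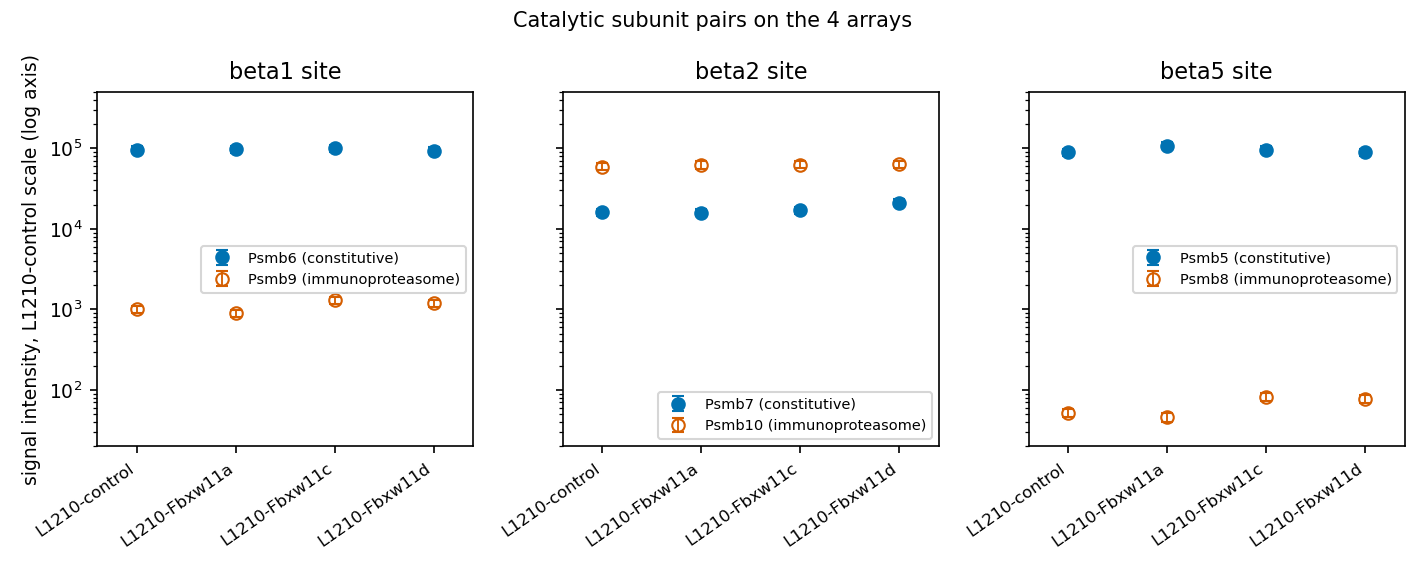
Signal intensity (log axis, L1210-control scale) of each constitutive catalytic subunit (filled) and its immunoproteasome counterpart (open) on the 4 arrays, with bars for the scanner software's error. Within Psmb8 and within Psmb9 the L1210-Fbxw11c and L1210-Fbxw11d points are the highest, and heights are not compared between genes because probes differ in brightness.

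Over the 3 sites, the mean immunoproteasome minus partner difference was -0.18 ± 0.13 (SD from spots) in L1210-Fbxw11a, 0.28 ± 0.13 in the Fbxw11c line and 0.20 ± 0.14 in the Fbxw11d line. Under normexp it was 0.12 in L1210-Fbxw11c and -0.05 in the Fbxw11d line, and when probes were averaged 0.07 and -0.13. The 3 lines were also set against each other, which does not use the control array. Psmb8 was 1.78-fold higher in L1210-Fbxw11c than in L1210-Fbxw11a, a log2 ratio of 0.83 ± 0.37, and 1.69-fold higher in L1210-Fbxw11d than in L1210-Fbxw11a, at 0.76 ± 0.38. It was the 1 member of 40 past 1.5-fold in each of these contrasts, where 10.8% and 15.9% of all genes passed. After normexp the same Psmb8 ratios were 0.37 and 0.14, both under 1.5-fold. Between L1210-Fbxw11d and L1210-Fbxw11c no member passed 1.5-fold, and 12.4% of all genes did. Psmb9 was 1.43-fold higher in L1210-Fbxw11c (0.52 ± 0.10) and 1.33-fold higher in L1210-Fbxw11d (0.42 ± 0.12) than in L1210-Fbxw11a. The latter was 1.54-fold under centring on the median and 2.18-fold on the spike-in scale. Psmb8 was 2.76-fold higher in L1210-Fbxw11d than in L1210-Fbxw11a on the spike-in scale.

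**Figure D3:**
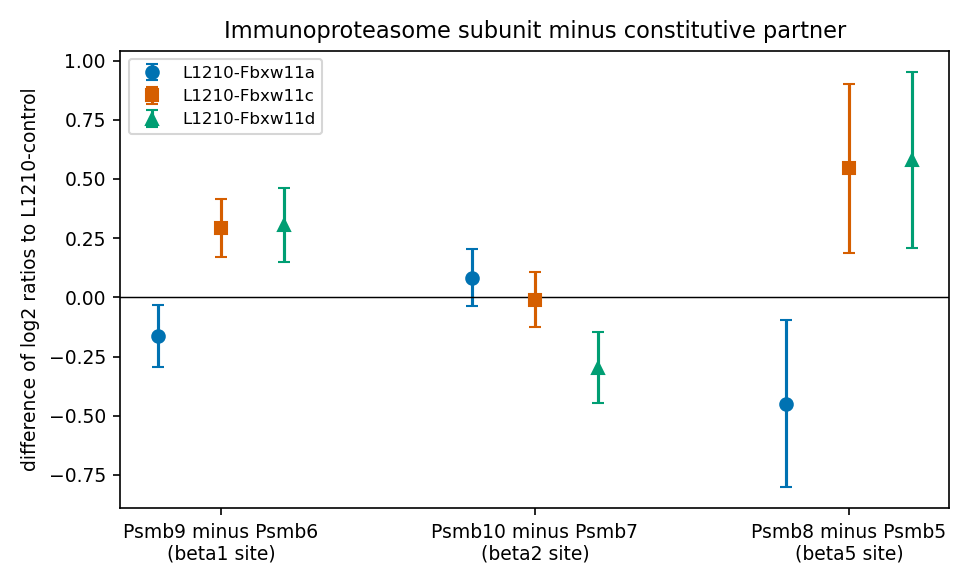
Difference between the log2 ratio of an immunoproteasome subunit and that of its constitutive partner, each ratio being to L1210-control, at the 3 catalytic sites; bars are the SD from single spots and each point is 1 array against 1 array. At the beta1 and beta5 sites L1210-Fbxw11c and L1210-Fbxw11d lie between 0.29 and 0.58 and L1210-Fbxw11a lies below 0, while at the beta2 site the L1210-Fbxw11d point lies at -0.30.

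Psmb8 and Psmb9 are neighbours in the MHC class II region, with Tap1, a peptide transporter subunit, between them. The starts of Psmb9 and Tap1 lie 226 bases apart on opposite strands in GRCm38.p6. Tap1 was dim, with 50.9 in L1210-control, 47.8 with Fbxw11a, 62.6 with Fbxw11c and 55.1 with Fbxw11d. Its ratios were -0.09, 0.30 and 0.11, and after normexp those of L1210-Fbxw11c and L1210-Fbxw11d were 0.09 and -0.23. The next genes in the order did not all go the same way. Tap2, the other transporter subunit, read -0.20, -0.06 and -0.13 as log2 ratios. H2-Ob, beyond it, read -0.22, -0.88 and -0.64, and H2-Ab1, an MHC class II chain, read 0.25, 1.02 and 0.66. On the side of Psmb9, H2-DMb1 read -0.43, -0.14 and -0.03.

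The bases before the start of 4 of these catalytic genes are shown because Psmb8 and Psmb9 shared the order of the lines and their partners did not. Each is the 250 bases before the start, from RefSeq on GRCm38.p6, in the direction of the gene. The windows are chr17:34197945-34198194 (Psmb8, plus strand), chr17:34187331-34187580 (Psmb9, minus strand), chr14:54617996-54618245 (Psmb5, minus strand) and chr11:70525107-70525356 (Psmb6, plus strand). Capitals mark a match, on either strand, to the interferon-regulated motif TTCNNNGAA (in Psmb8), to the antioxidant response core TGANNNNGC (in Psmb9, Psmb5 and Psmb6) or to the CCAAT box (in Psmb9).
Psmb8: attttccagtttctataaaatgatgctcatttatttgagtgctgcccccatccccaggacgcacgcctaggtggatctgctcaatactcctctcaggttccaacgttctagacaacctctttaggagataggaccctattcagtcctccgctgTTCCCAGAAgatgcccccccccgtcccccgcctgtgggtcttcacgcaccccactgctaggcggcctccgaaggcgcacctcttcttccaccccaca
Psmb9: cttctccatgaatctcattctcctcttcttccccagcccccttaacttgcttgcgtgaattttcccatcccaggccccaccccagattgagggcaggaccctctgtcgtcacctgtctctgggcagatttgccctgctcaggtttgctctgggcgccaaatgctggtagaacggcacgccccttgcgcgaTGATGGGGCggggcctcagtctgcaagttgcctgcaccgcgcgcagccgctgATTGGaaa
Psmb5: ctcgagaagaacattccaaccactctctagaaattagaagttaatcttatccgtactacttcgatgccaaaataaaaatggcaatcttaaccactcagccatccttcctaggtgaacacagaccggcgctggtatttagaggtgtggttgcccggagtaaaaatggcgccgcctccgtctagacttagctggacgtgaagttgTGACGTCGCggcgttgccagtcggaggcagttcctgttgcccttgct
Psmb6: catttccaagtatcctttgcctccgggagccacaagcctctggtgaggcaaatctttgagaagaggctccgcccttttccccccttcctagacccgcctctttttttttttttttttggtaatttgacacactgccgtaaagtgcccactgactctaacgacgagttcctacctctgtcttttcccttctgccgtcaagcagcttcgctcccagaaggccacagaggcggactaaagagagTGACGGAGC

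TTCNNNGAA stood 97 bases before the start of Psmb8 and was in 7.02% of the 32851 promoter windows of this length. Of the 35 members with a window, Psmb8 was the 1 that held it. TGANNNNGC was in 13 of the 35 members and in 35.2% of all windows, and CCAAT was in 14 of the 35 and in 33.8% of all. GAAANNGAA, the core read by interferon regulatory factors, was in 3 of the 35 (Psmb3, Psmd4 and Psmd9) and in 7.13% of all. The NF-κB consensus was in 6 of the 35 and in 7.25% of all, and in none of the catalytic genes shown. The Psmb10 window held none of the 5 motifs. Matches overlapped with no other motif in the windows shown. A match is a run of letters and shows no binding.

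The 6 ATPase genes ran from -0.22 to 0.30 in L1210-Fbxw11a, from -0.05 to 0.29 in the Fbxw11c line and from -0.14 to 0.26 in the Fbxw11d line. Psmc6 was the highest member of L1210-Fbxw11a, with 5116 in L1210-control, 6292 with Fbxw11a, 6266 with Fbxw11c and 5387 with Fbxw11d. L1210-Fbxw11a and L1210-Fbxw11c were the high lines, at ratios of 0.30 ± 0.09 and 0.29 ± 0.09, against 0.07 in L1210-Fbxw11d. Psmc1 read 0.24 in L1210-Fbxw11a by its brighter probe and 0.05 by the other. Psmc5 read -0.22 in L1210-Fbxw11a and 0.12 in L1210-Fbxw11d, and Psmc2 read -0.14 in L1210-Fbxw11d, which turned to 0.07 under centring on the median.

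The 14 non-ATPase genes of the regulatory particle ran from -0.23 to 0.15 in L1210-Fbxw11a, from -0.18 to 0.15 in the Fbxw11c line and from -0.11 to 0.33 in the Fbxw11d line. Psmd8, a subunit of the lid, was among the highest in L1210-Fbxw11a (0.15) and in L1210-Fbxw11d (0.33 ± 0.11) and among the 5 lowest in L1210-Fbxw11c (-0.06). Psmd5, an assembly chaperone of the base, read 9272 in L1210-control, 8597 with Fbxw11a, 9060 with Fbxw11c and 11440 with Fbxw11d, so that L1210-Fbxw11d was the high line (0.30 ± 0.11). Psmd11, a lid subunit, was among the 5 lowest in L1210-Fbxw11a (-0.23) and L1210-Fbxw11c (-0.15) and read 0.14 in L1210-Fbxw11d. Psmd7, also of the lid, read -0.18 in L1210-Fbxw11c. Psmd14, the deubiquitinase of the particle, read -0.06, 0.12 and 0.08.

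Among the activators, Psme1 forms a ring with Psme2, Psme3 acts in the nucleus, and Psme4 binds the core as a single large protein. Psme1 was the best measured member, since its probe was printed on 10 spots. It read 14309 ± 492 (SD between spots, n = 10) in L1210-control, 13665 ± 599 (n = 10) with Fbxw11a, 13063 ± 397 (n = 10) with Fbxw11c and 14349 ± 805 (n = 9) with Fbxw11d, where 1 spot was left out as an outlier. The ranges of the spots overlapped between L1210-control and each of the other arrays, and the log2 ratios of the lines to the control were -0.07 ± 0.03 (SD of a difference of spot means), -0.13 ± 0.03 and 0.0028 ± 0.04. Those of L1210-Fbxw11a and L1210-Fbxw11c were 2.49 and 5.03 such SDs below 0, an error that covers the spots alone.

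Psme3 read 4965 in L1210-control, 5292 with Fbxw11a, 5034 with Fbxw11c and 4521 with Fbxw11d, with ratios of 0.09, 0.02 and -0.14. The last was among the 5 lowest of L1210-Fbxw11d and turned positive under centring on the median and after normexp. Psme4 read 1394 in L1210-control, 1165 with Fbxw11a, 1675 with Fbxw11c and 1663 with Fbxw11d. By this probe it had the order of lines seen in Psmb8 and Psmb9, with ratios of -0.26 ± 0.09, 0.26 ± 0.09 and 0.25 ± 0.11. Its other probe read 545, 550, 617 and 408 on the same arrays, which gives ratios of 0.01, 0.18 and -0.42. Psme4 was the 1 member whose probes, all well above background, differed by over 0.5, by 0.67 in L1210-Fbxw11d.

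For the genes with 2 probes other than Psmb9 and Psme4 the log2 ratios of the 2 probes differed by at most 0.24 in each line. Over the 7 members with 2 bright probes the median difference between probes was 0.07 in L1210-Fbxw11a, 0.05 in the Fbxw11c line and 0.07 in the Fbxw11d line, beside 0.08, 0.08 and 0.14 over 1195 genes with 2 bright probes.

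**Figure D4:**
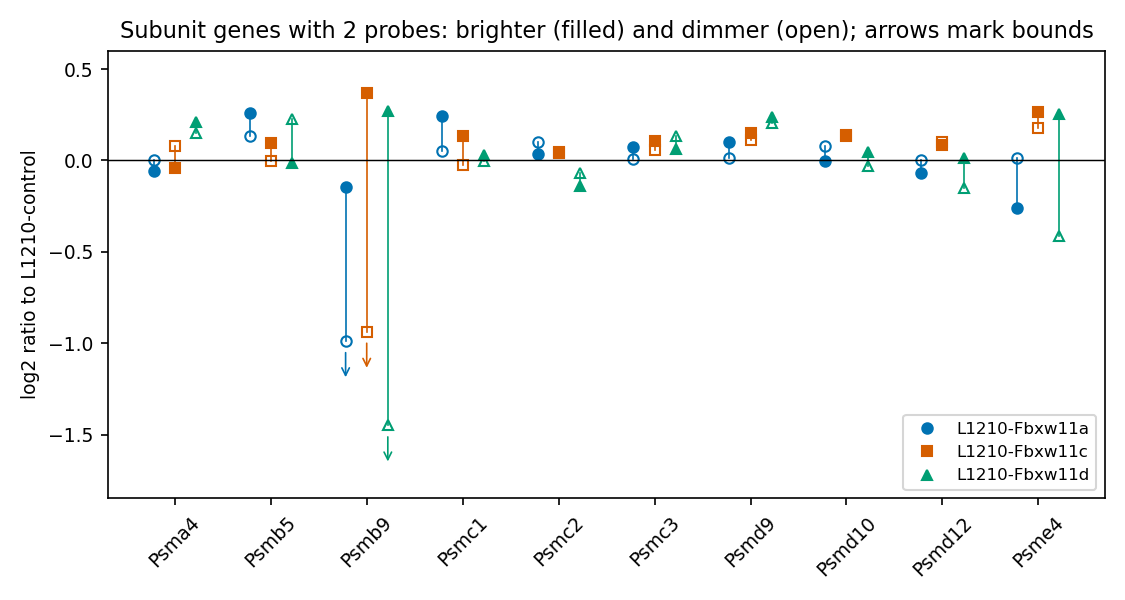
Log2 ratio to L1210-control by the brighter (filled) and the dimmer (open) probe of the 10 subunit genes with 2 probes, by line. The probes lie close together except for Psmb9, whose open symbols are bounds (arrows), and Psme4 in L1210-Fbxw11d, at 0.25 and -0.42.

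Dim genes spread more over the 4 arrays than bright ones, and Psmb8 was by far the dimmest member measured. Its span from the lowest to the highest array was 0.83 on the log2 scale, beside a median of 0.67 over 2932 genes with a mean signal from 30 to 100. The span of Psmb9 was 0.52 and that of Psme4 was 0.52, beside a median of 0.32 over 3259 genes with a mean signal from 500 to 2000. That of Psmb10 was 0.10, beside 0.23 over 2037 genes from 10000 to 100000.

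**Figure D5:**
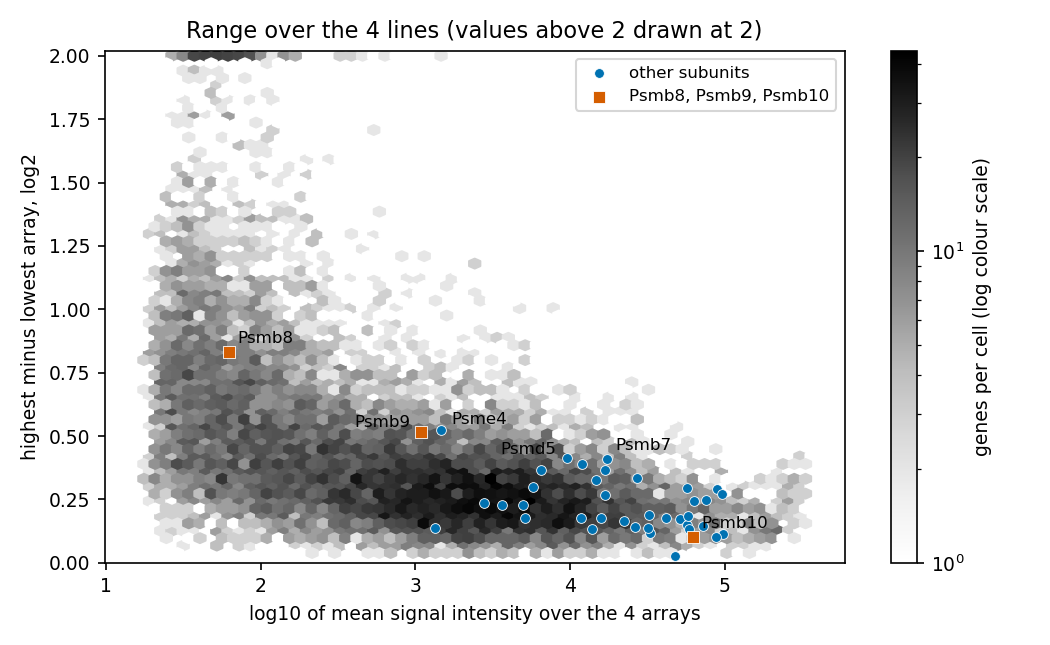
Highest minus lowest array (log2) against log10 of the mean signal over the 4 arrays, for the 16249 genes measured on each array (grey, log colour scale) and the 40 subunit genes (points). Most subunits sit low and to the right, while Psmb8 (0.83), Psmb9 (0.52) and Psme4 (0.52) have the widest spans.

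Genes that act with the proteasome were counted against L1210-control, from lists of companion genes. At 1.5-fold 10.8%, 9.86% and 14.7% of all genes passed, so that a count of 0 in a short list is near the background. None of the 6 assembly factors passed 1.5-fold, and their medians were 0.08, 0.14 and 0.02. Pomp, the maturation factor of the core, read 0.10, 0.13 and 0.02. Of 12 partner proteins none passed 1.5-fold. Usp14, a deubiquitinase on the particle, read 0.15, 0.14 and 0.13. None of 6 ubiquitin and ubiquitin-activating genes passed it. Under centring on the median, where 19.5% of all genes passed in L1210-Fbxw11d, 2 assembly factors (Psmg4 and Akirin2) and 2 partners (Ubqln4 and Txnl1) did so in that line. Between the Fbxw11 lines, Psmg4, an assembly chaperone of the alpha ring, was 1.81-fold higher in L1210-Fbxw11d than in L1210-Fbxw11a. Its log2 ratio was 0.86 ± 0.12, in a contrast where 15.9% of all genes passed 1.5-fold. The fold was 2.10 under centring on the median and 2.96 on the spike-in scale. Against L1210-Fbxw11c Psmg4 was 1.49-fold higher in L1210-Fbxw11d, 1.64-fold under centring on the median and 2.48-fold on the spike-in scale. It read 4617 in L1210-control, 3717 with Fbxw11a, 4541 with Fbxw11c and 6745 with Fbxw11d.

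Of 9 regulators, 8, 7 and 8 gave a fold in the 3 lines, and 1 passed 1.5-fold. This was Foxo4 in L1210-Fbxw11a, by at least 1.57-fold, with a signal of 29.2 against 18.6 in L1210-control, where it was not well above background. Its log2 ratio of 0.65 was close to the spot SD of 0.61 at this brightness, and it was under 1.5-fold after normexp (0.10) and with the mean of its probes (0.48). In L1210-Fbxw11c it was 1.68-fold lower than in L1210-Fbxw11a, a log2 ratio of -0.75 ± 0.69 in a contrast where 10.8% of all genes passed 1.5-fold, -0.20 after normexp and -0.04 with the mean of its probes. Nfe2l1, the factor that raises subunit genes when the proteasome is inhibited, read 558 in L1210-control, 505 with Fbxw11a, 525 with Fbxw11c and 436 with Fbxw11d. All 3 Fbxw11 lines were below the control, at -0.14 ± 0.10 (SD between single spots), -0.09 ± 0.09 and -0.36 ± 0.12. The ratio of L1210-Fbxw11c was within 1 spot SD. That of L1210-Fbxw11d was -0.14 under centring on the median and turns positive on the spike-in scale.

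Of 13 interferon response and antigen processing genes that gave a fold in each line, 12 were below L1210-control in L1210-Fbxw11a, 9 in the Fbxw11c line and 5 in the Fbxw11d line. Of all genes with a fold, 47.8%, 45.7% and 43.8% were below it. Under centring on the median the counts below were 12, 5 and 2, beside 47.3%, 34.2% and 23.3% of all genes, and under quantile normalization 12, 10 and 7, beside 49.6%, 46.6% and 44.2%. The medians of the 13 were -0.17, -0.06 and 0.04. Past 1.5-fold were Irf8, an interferon regulatory factor of myeloid and B cells, in L1210-Fbxw11a (-0.62 ± 0.10), and Nlrc5, an activator of MHC class I genes, in L1210-Fbxw11d (-1.27 ± 0.81). After normexp Irf8 was under 1.5-fold there, at -0.54. Irf8 read -0.55 in L1210-Fbxw11c and -0.46 in the Fbxw11d line. Nlrc5 was dim, with 67.0 in L1210-control and 27.8 with Fbxw11d, and it was also past 1.5-fold below L1210-Fbxw11a (-1.13 ± 0.82) and L1210-Fbxw11c (-0.96 ± 0.82) in that line. All 3 ratios were under 2 spot SDs. On the spike-in scale Nlrc5 was 1.34-fold below L1210-Fbxw11a and 1.17-fold below L1210-Fbxw11c, both under 1.5-fold. Calr, a chaperone of MHC class I loading, was 1.53-fold higher in L1210-Fbxw11d than in L1210-Fbxw11a. This fold was 1.49 under quantile normalization, 1.77 under centring on the median and 2.50 on the spike-in scale. Against L1210-Fbxw11c Calr was 1.31-fold higher in L1210-Fbxw11d, and 2.19-fold higher on the spike-in scale. Irf1, a factor that binds the Psmb9 and Tap1 promoters under interferon, read -0.18, -0.03 and 0.11.

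Markers of cell types were read on the same arrays. Of 8 B lineage markers 5 were well above background on each array, and Cd79b, Ebf1 and Igll1 on none. Of 6 markers of mature antigen-presenting cells 3 were well above background on each array, with summed signals of 337 in L1210-control, 381 with Fbxw11a, 421 with Fbxw11c and 366 with Fbxw11d, and Itgax, H2-Aa and Ciita were on none. Of 9 macrophage markers 6 were well above background on each array, summing to 14589 in L1210-control and from 11134 to 12322 on the other lines, with Lyz2, Cd163 and Fcgr1 on none. Of 8 T lineage markers 5 were so on each array, summing to 4666 in L1210-control and from 4477 to 4903 on the others, with Cd3d, Cd3g and Thy1 on none. Sums follow the brightest probes, and some dimmer markers differed more. Cd28 was 2.25-fold, 2.24-fold and 2.58-fold lower in the 3 lines, and Flt3 (2.15-fold) and Csf1r (2.17-fold) were lower in L1210-Fbxw11d. Of 9 fibroblast markers 4 to 6 were so, with Pdgfrb, Fap and Thy1, which is on both lists, on none. Their sum of 1242 in L1210-control and 2778 to 4137 on the others was mostly Col1a2, a collagen chain, which read 888 in L1210-control, 2419 with Fbxw11a, 3825 with Fbxw11c and 3702 with Fbxw11d. Others of the list went the opposite way, as Pdgfra did with log2 ratios of -0.55 in L1210-Fbxw11c and -0.70 in the Fbxw11d line. Fewer cells of a type and less RNA per cell cannot be told apart, and the part of these markers in the ratios of Psmb8 and Psmb9 was not tested.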

How the data were processed

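RNA of 4 L1210 lines was hybridised with Cy3 to Agilent 1-colour mouse arrays, 1 for each line. The authors deposited the scanner output of each array, which holds background-corrected signal intensities per spot with flags, and 1 table of the raw signals, normalized log2 values, gene symbols and mm9 positions. The submitters' processing notes name Agilent Feature Extraction 9.1, and the file headers give 10.7.1.1. How the deposited log2 values were normalized is not given in the sources used here.

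From the intensities, spots marked as outliers were left out, log2 signals were averaged over the spots of a probe, and each array was shifted to the 75th percentile of L1210-control over gene spots (621 in L1210-control, 628 with Fbxw11a, 672 with Fbxw11c, 952 with Fbxw11d). Probes well above background made up 62.5% to 68.7% of all probes. A gene was read by its probe of highest mean signal, and compared where at least 0.5 of the spots were well above background on at least 1 of 2 arrays. Where the other array was below that, the fold is a bound against the higher of the probe's own signal there and the lowest signal well above background on that array. Background shares count every gene so compared. The number of arrays limits the precision.

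Named were both members of each catalytic pair, the Psme genes, Psma8 and Psmb11, the 5 highest and 5 lowest subunits of each line, subunits whose probes differed by over 0.5, and companion genes past 1.5-fold, with Nfe2l1, Pomp, Tap1, Irf1 and Usp14. One gene of this rule is not reported here. Some others are named within their group, and the neighbours of Psmb8 by their order in RefSeq. The subunits, lists and rules were chosen with earlier results of these data known. Alternatives were quantile normalization, centring on the median, normexp correction (limma 3.58.1 in R 4.3.3, offset 50), the authors' values, outlier spots kept, the mean of a gene's probes, other filters and thresholds of 1.5 and 3. The threshold of 1.2, scaling to the spike-in RNAs, the view of bright genes and the contrasts between Fbxw11 lines were added after seeing the data. The comparison was tested on simulated data. Computations used Python 3.11.15, numpy 2.4.6 and pandas 2.3.3.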

Additional observations from a re-analysis of the deposited data

How the results depend on the processing

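The count of 0 subunits past 2-fold was the same in each line under every planned scaling, filter and probe rule, and at a threshold of 3. With arrays set to their spike-in RNAs it was 1 in L1210-Fbxw11d, and the median ratios in L1210-Fbxw11a, the Fbxw11c line and the Fbxw11d line moved to -0.129, -0.085 and 0.617 for all subunits and to -0.121, -0.092 and 0.606 for the constitutive ones, as each array shifted by 1 number. At 1.5-fold it was 1 in L1210-Fbxw11c, and at 1.2-fold it was 2, 4 and 6 in L1210-Fbxw11a, the Fbxw11c line and the Fbxw11d line. Centring on the median moved the L1210-Fbxw11d array by 0.21, and with it the median ratio to 0.25 for all subunits and 0.24 for the constitutive ones. The mean immunoproteasome minus partner difference moved to 0.12 in L1210-Fbxw11c and -0.053 in L1210-Fbxw11d after normexp, and to 0.075 and -0.13 with the mean of each gene's probes. The causes were not tested, beyond the bounds of the second Psmb9 probe and an offset close to the Psmb8 signal, which enter by construction. Under quantile normalization and in the authors' values this difference stayed between 0.24 and 0.29 in both lines. Across the planned scalings and probe rules, 4 of 40 subunits changed sign under at least 1 alternative in L1210-Fbxw11a, 14 in the Fbxw11c line and 25 in the Fbxw11d line. No paired analysis was possible because each line had 1 array. Psmb8 and its dim neighbours are limited by signal over background.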
